A study of Mus musculus with 48 samples.

Results

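Accessible chromatin was described at 9 genes of cytokine signalling in tumour-infiltrating CD8 T cells of the mouse. They were the transcription factors Stat3, Stat4, Stat5a, Stat5b and Stat6 and the feedback inhibitors Socs1, Socs2, Socs3 and Cish. An ATAC-seq peak was assigned to one of them when it overlapped the gene's protein-coding body. A peak that overlapped several genes went to the gene with a boundary nearest its middle, and a peak outside all gene bodies went to the nearest body within 100 kb. The rule used no measured value and found 67 of the 53868 peaks, 49 in a gene body and 18 outside one. Stat4 had 19, Stat3 10, Stat5b 9, Socs3 and Cish 6 each, Stat5a, Socs1 and Socs2 5 each, and Stat6 2. Stat5b (chr11:100780731-100859004), Stat5a (chr11:100859351-100885169) and Stat3 (chr11:100886806-100939594) lie side by side. The others are Stat4 (chr1:51987106-52107189), Stat6 (chr10:127642955-127660987), Socs1 (chr16:10783808-10785536), Socs2 (chr10:95383903-95417321), Socs3 (chr11:117966079-117970336) and Cish (chr9:107296659-107302784), in the RefSeq annotation of GRCm38.p6. Distances given for a peak run from its middle to the nearest transcript start unless a gene's end is named. Exons and introns were not used here.

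The 48 libraries came from OT-1 cells, CD8 T cells whose transgenic receptor recognizes an ovalbumin peptide, and which here also had Cas9 and the CD45.1 marker. In all 21 groups the cells had received a lentivirus with 1 guide RNA and an ametrine reporter, were placed in an aged or a young host the day before B16-OVA melanoma cells, and were sorted from the tumour on day 15 as ametrine-positive cells. The guides were OTC, which the labels call the control without saying what it stands for, Zfp219 (a zinc finger protein) and Dusp5 (a nuclear phosphatase of ERK kinases). The sorted states were Tprog (Slamf6+ Tim-3-, labelled progenitor exhausted), Ttran (Slamf6+ Tim-3+, labelled transitory and effector-like), Tterm (Slamf6- Tim-3+, labelled terminally exhausted) and Ttad (Slamf6- Tim-3-, labelled age-associated dysfunctional, in aged hosts only). The 24 aged libraries were 2 for each guide in each of the 4 states. The 24 young libraries were 2 for each guide in Tprog and 3 each in Ttran and Tterm. A library held between 5000 and 50000 cells pooled from several mice, so that tests measure the spread between pools. The ages of the hosts in weeks or months are not given in the sources used here.

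Cytokine receptors carry Janus kinases, which phosphorylate STAT proteins. The STAT proteins then pair, enter the nucleus and bind DNA. In CD8 T cells STAT4 acts downstream of interleukin-12, STAT5A and STAT5B downstream of the interleukin-2 family, STAT3 downstream of interleukin-6 and its relatives, and STAT6 downstream of interleukin-4. The SOCS proteins and CISH are induced by STATs and dampen the same receptors, which closes a feedback loop.

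The reads counted in peaks ranged from 5638413 to 29942755 per library (median 14691505), with 5638413 to 16159054 in aged and 6589023 to 29942755 in young libraries. The member peaks were strong ones. Their median was 317 normalized reads, against 93.9 over all peaks, and 1 peak in 1 library had 0 reads. Over the 67 peaks, the 33 pairs of libraries of 1 group correlated at r = 0.94 to 0.994 on the log2 scale, and the median coefficient of variation within a group was 6.77% for group means of at least 50. At a peak in Thy1 (chr9:44046603-44047436), a T cell surface gene, 6 libraries of 3 aged groups stood apart: both libraries of OTC Ttran, OTC Ttad and Zfp219 Ttran had 2944 to 4884 normalized reads, the other 42 libraries 117 to 959. Among those 42 the aged OTC Tterm libraries were highest, at 829 and 959, against 122 and 135 in aged OTC Tprog. What set these libraries apart was not tested. Means over Tprog and Tterm alone still hold the aged OTC Tterm libraries. Means over states that use these groups are therefore given also over Tprog and Tterm alone, and aged OTC Ttran is set beside young OTC Ttran, since no young library stands apart. For OTC Ttad there is no young group to set beside it. The aged Zfp219 and Dusp5 Ttad libraries were not apart, with 567 to 668 and 172 to 208 normalized reads. Ttad was compared with other states in OTC cells only. All 7 listed CD8 T cell genes had a peak. Their mean over genes ranged over single libraries from 338 to 1181 normalized reads per kb. The high end lay in libraries with the Thy1 signal, where Thy1 itself reached 5864 per kb. The ranges that follow are also over single libraries. Of the listed genes of other cells, 2 of 3 for CD4 T cells (220 to 421 per kb), 1 of 5 for B cells (89.4 to 339), 3 of 6 for myeloid cells (239 to 365), 1 of 2 for natural killer cells (0 to 117) and 3 of 6 for melanoma cells (179 to 345) had one, and their part in the results was not tested. In sorted pools, fewer cells with an open site and less opening per cell cannot be told apart. The peaks do not check whether a guide edited its target.

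Promoter sequences of 4 members are shown because their start peaks are described below and because STAT proteins bind a known motif, TTCNNNGAA. They are RefSeq sequences of GRCm38.p6, from 250 bases before the transcript start to 30 bases from the start on, in the direction of transcription. Capitals mark matches to TTCNNNGAA, where N is any base.
Cish (chr9:107296409-107296688, plus strand): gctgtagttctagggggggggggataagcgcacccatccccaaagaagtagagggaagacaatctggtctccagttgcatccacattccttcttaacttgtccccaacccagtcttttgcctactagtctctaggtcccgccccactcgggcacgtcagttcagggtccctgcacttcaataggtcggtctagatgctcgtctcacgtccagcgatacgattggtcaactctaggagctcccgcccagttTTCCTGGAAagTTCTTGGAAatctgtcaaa
Socs3 (chr11:117969337-117969616, minus strand): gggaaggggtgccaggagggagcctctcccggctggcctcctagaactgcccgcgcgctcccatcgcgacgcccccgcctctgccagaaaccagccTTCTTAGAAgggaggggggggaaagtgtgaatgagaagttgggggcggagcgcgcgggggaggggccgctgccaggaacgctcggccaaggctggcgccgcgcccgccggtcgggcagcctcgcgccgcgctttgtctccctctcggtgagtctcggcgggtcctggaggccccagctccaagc
Stat5a (chr11:100860234-100860513, plus strand): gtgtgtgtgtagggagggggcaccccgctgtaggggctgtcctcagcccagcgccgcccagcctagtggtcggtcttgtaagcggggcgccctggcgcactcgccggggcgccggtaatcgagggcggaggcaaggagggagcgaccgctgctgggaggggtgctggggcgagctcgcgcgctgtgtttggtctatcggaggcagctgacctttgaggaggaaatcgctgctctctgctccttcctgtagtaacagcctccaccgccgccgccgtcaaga
Stat3 (chr11:100939511-100939790, minus strand): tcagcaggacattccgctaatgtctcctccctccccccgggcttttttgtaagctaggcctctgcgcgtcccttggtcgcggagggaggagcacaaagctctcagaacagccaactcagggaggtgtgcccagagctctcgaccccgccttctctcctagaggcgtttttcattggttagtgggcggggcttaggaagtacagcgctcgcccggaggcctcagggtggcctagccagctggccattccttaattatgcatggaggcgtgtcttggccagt

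The Cish promoter held 2 matches, TTCCTGGAA at bases 1 to 9 and TTCTTGGAA at bases 12 to 20, counted from the transcript start. Socs3 held TTCTTAGAA at bases -154 to -146. The motif was searched on both strands of 32851 promoters in windows of 300 bases, of which 8.3% held it and 0.457% held 2 or more. It was in 2 of the 11 promoter windows of the 8 members with an entry, those of Cish and Socs3. The STAT6 form with a longer spacer (6.95% of promoters), the AP-1 motif TGANTCA (7.81%) and the TCF/LEF motif CTTTGAT (3.73%) were in none of the 11, and the Runx motif TGTGGTT (5.27%) was in that of Stat6. No 2 of these matches overlapped. A match describes letters, not a bound site.

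Every member had an open peak in all 21 groups. The strongest gene-body peak held a transcript start in 6 members and lay inside the gene in Stat4 and Stat5b, while for Socs2 it was placed by the gene body alone. Per kb of peak and averaged over groups, the order was Stat3 (1849 normalized reads per kb), Socs1 (901), Stat5a (811), Stat4 (658), Cish (638), Stat6 (575), Socs3 (560), Stat5b (302) and Socs2 (106). The Stat3 start peak (chr11:100938823-100940283) ranged over groups from 2388 ± 7.46 normalized reads (SD, n = 2, aged Zfp219 Tterm) to 3265 ± 180 (n = 2, aged OTC Ttran), a ratio of 1.37. Stat5a ranged from 1331 ± 110 (n = 3, young Zfp219 Tterm) to 2449 ± 202 (n = 2, aged OTC Ttran), a ratio of 1.84. Socs2 (chr10:95414434-95418116) spread the most among these peaks, from 253 ± 22.3 (n = 2, young OTC Tprog) to 549 ± 48.8 (n = 2, aged Zfp219 Ttran), a ratio of 2.17. Socs1 (chr16:10784721-10786772) spread the least, from 1612 ± 17.6 to 2030 ± 4.33 (n = 2 each), a ratio of 1.26. For each of the 9 peaks, 16 to 19 of the 20 neighbouring pairs of groups in the order of means had overlapping libraries, so that neighbours were mostly not separated by their spread.

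**Figure D1:**
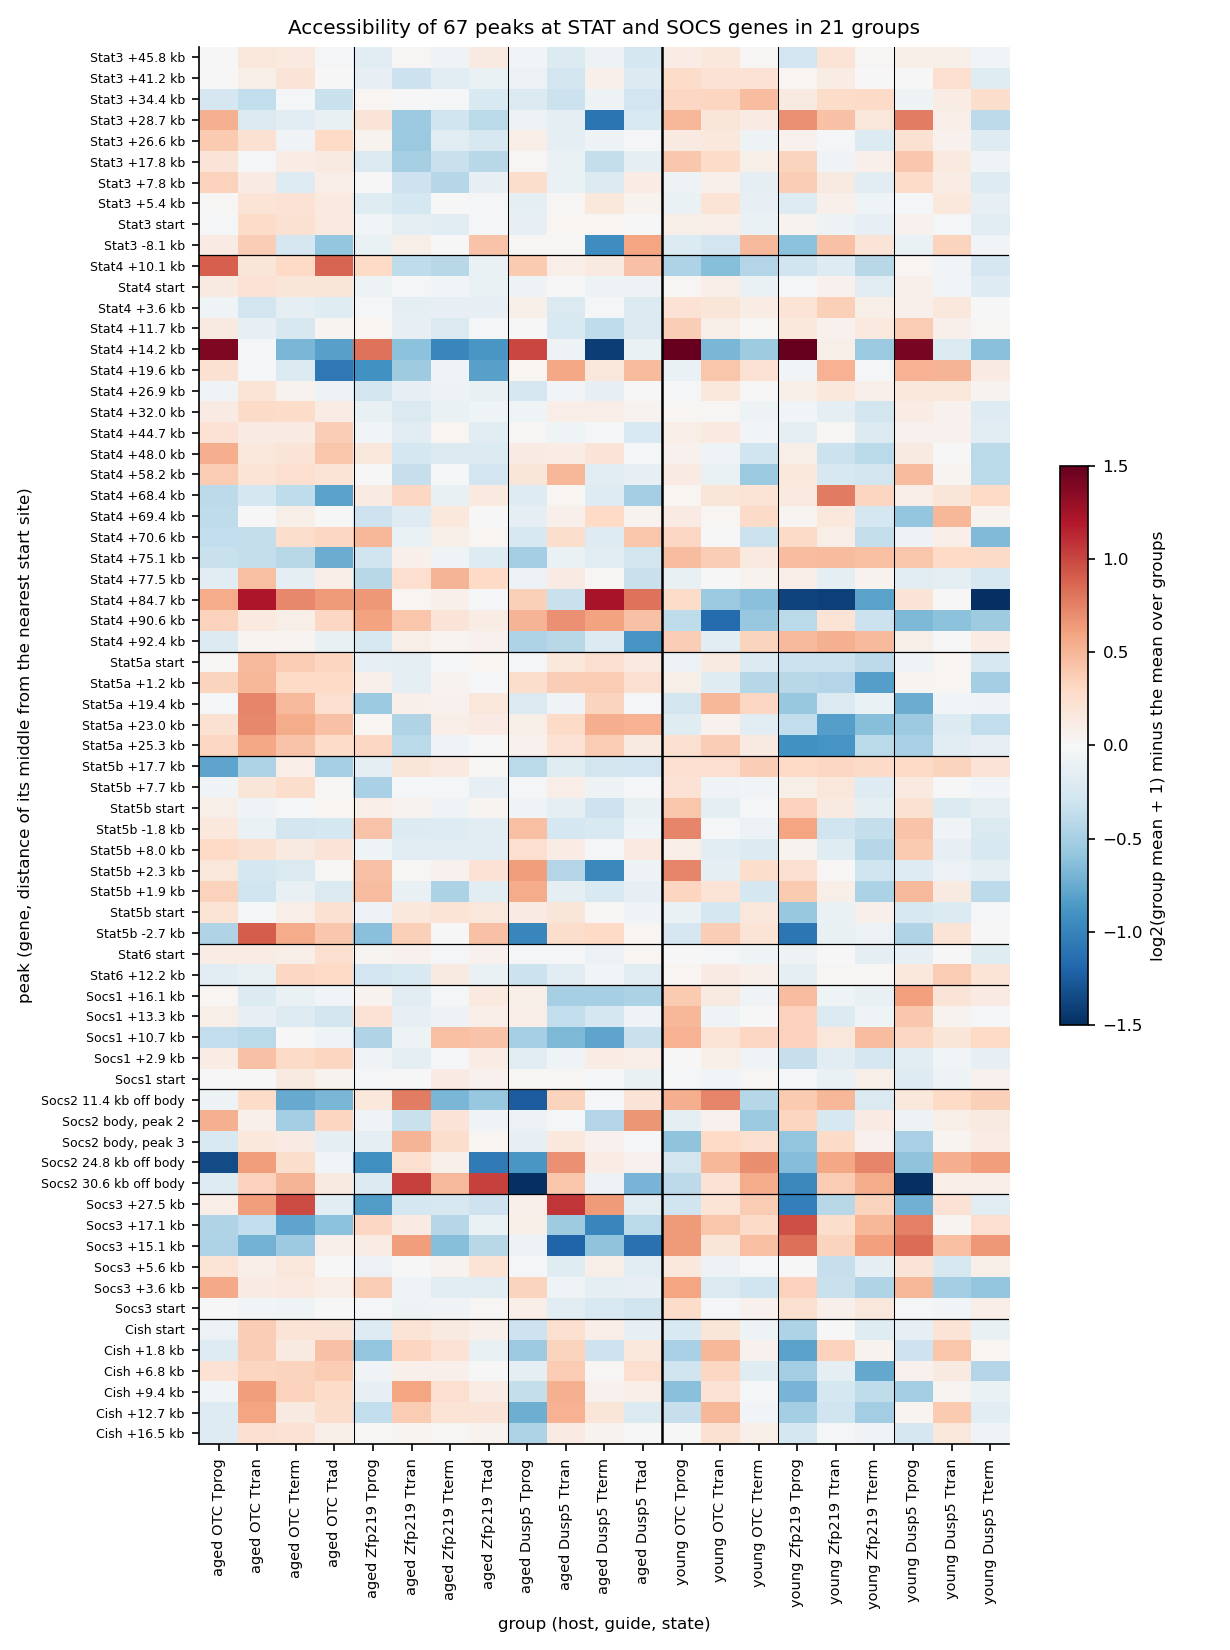
Accessibility of the 67 peaks (rows, ordered by gene) in the 21 groups (columns), as log2 of the group mean of normalized reads plus 1, minus the peak's mean over groups. The Stat4 row at +14.2 kb is high in the Tprog columns of all guides and both hosts, with group means in the OTC cells of 204 (aged) and 256 (young) against 43.1 to 74.5 in the other OTC groups.

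The first comparison asked how the control cells of the 4 states differ at these genes. Between Tprog and Tterm, the called Stat4 peaks were higher in Tprog and the called Cish and Socs2 peaks lower in Tprog, in both hosts. In aged OTC cells 19 of the 67 peaks were called (limma, adjusted p under 0.05 over all peaks), 9 higher and 10 lower in Tprog, where 20.1% of all peaks were called (8.88% higher and 11.2% lower). Under quantile normalization the split was 10 higher and 6 lower. In young OTC cells 20 were called, 14 higher and 6 lower, where 26.5% of all peaks were called (13.9% higher and 12.6% lower). Members are strong peaks. Among the 13438 peaks with a mean of at least 317 normalized reads, 26.4% were called in aged cells (6.33% higher and 20% lower). In young cells 34.8% were (15.1% higher and 19.7% lower). The 34 members among them had 4 higher and 7 lower in aged cells, and 11 higher and 3 lower in young cells. The 8 of all 67 members called in both hosts were 42.1% of the aged and 40% of the young calls, and 7 of them had the same direction. Of the lower calls 3 in each host were Cish peaks, and quantile normalization ended those at the start in aged cells and at 12.7 kb downstream in aged and young cells (-0.14, -0.28 and -0.27, adjusted p = 0.245, 0.101 and 0.0538).

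Stat4, the mediator of interleukin-12 signals, held the peak with the widest difference between Tprog and Tterm in both hosts, 14.2 kb inside the gene from the nearest start (chr1:52022195-52022719). Its normalized reads in aged OTC cells were 225 and 182 in Tprog, 93.3 and 55.8 in Ttran, 29.4 and 65.1 in Tterm and 41.9 and 44.4 in Ttad. In young OTC cells they were 205 and 308 in Tprog, 38.4, 54.7 and 48.6 in Ttran and 46.8, 59.8 and 50.6 in Tterm. Every Tprog library lay above every library of the other states, in both hosts. The log2 difference between Tprog and Tterm was 2.18 ± 0.35 (SE, adjusted p = 6.95e-07) in aged and 2.25 ± 0.32 (SE, adjusted p = 2.03e-08) in young cells. The Tprog libraries of the knockout guides had 108 and 161 (aged) and 266 and 246 (young) for Zfp219 and 166 and 142 (aged) and 216 and 197 (young) for Dusp5. In each host 4 of the 19 Stat4 peaks rose in Tprog over Tterm and none fell. Those at 11.7 kb (chr1:52019306-52020578) and 48 kb (chr1:52055666-52056728) from a start were among the 4 in both hosts, with log2 differences of 0.37 and 0.35 in aged and 0.35 and 0.37 in young cells. Their aged calls ended when the libraries numbered 1 or those numbered 2 were left out of the compared groups (0.29 to 0.41, adjusted p between 0.1 and 0.297), and in young cells that at 11.7 kb ended without number 1 or 3 (0.31 and 0.28, adjusted p = 0.12 and 0.0538) and that at 48 kb without number 2 (0.31, adjusted p = 0.129). The strongest Stat4 peak, 32.0 kb from a start (chr1:52039038-52041384), was called in no comparison of states, with 1678 and 1674 in aged OTC Tprog and 1852 and 1870 in aged OTC Tterm.

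**Figure D2:**
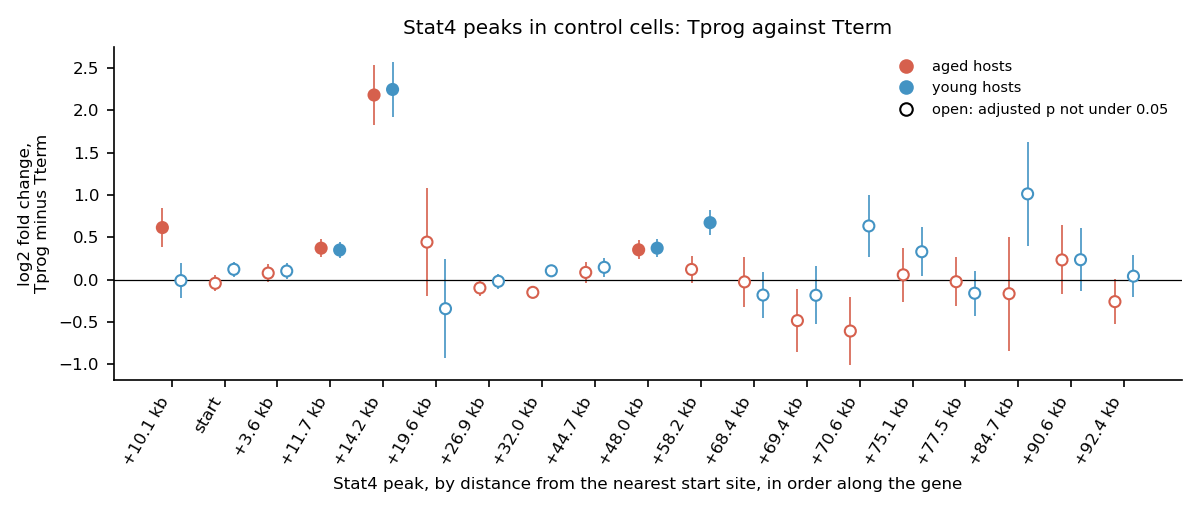
Log2 difference between Tprog and Tterm (vertical axis, with SE) for the 19 Stat4 peaks along the gene, in aged and young OTC cells, with open symbols where the adjusted p was not under 0.05. The peak at +14.2 kb stands at 2.18 (aged) and 2.25 (young), and no called Stat4 peak is below 0.

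Of the genes for the STAT5 proteins, which carry interleukin-2 family signals, Stat5b had peaks in both directions. The peak 1.77 kb upstream of one Stat5b start, inside the gene body (chr11:100823859-100824813), had 468 and 471 in young Tprog, 316, 274 and 236 in young Ttran and 267, 289 and 236 in young Tterm. In aged OTC cells it had 297 and 334 in Tprog and 233 and 231 in Tterm. Tprog was higher with no overlap, by 0.44 ± 0.16 (SE, adjusted p = 0.034) in aged and 0.83 ± 0.14 (SE, adjusted p = 1.94e-06) in young cells. The peak 17.7 kb inside Stat5b (chr11:100804150-100805553) went the other way in aged cells, with 168 and 138 in Tprog and 270.2 and 302 in Tterm, a difference of -0.90 ± 0.17 (SE, adjusted p = 2.57e-05). In young cells it had 312 and 323 in Tprog and 333, 366 and 331 in Tterm, and was not called. A weak peak 2.68 kb upstream of the other Stat5b start (chr11:100853079-100853437) was lower in aged Tprog, with 46.4 and 64.8 against 98.1 and 126 in Tterm, with a log2 difference of -1.01 ± 0.34 (SE, adjusted p = 0.0244). The Stat5a start peak (chr11:100859062-100861249) had 1730 and 1823 in aged Tprog, the lowest aged OTC state, and 2361 and 2191 in aged Tterm, a difference of -0.36 ± 0.08 (SE, adjusted p = 0.000181). Of these aged calls, that at 1.77 kb ended without the libraries numbered 1 or 2 (0.53 and 0.35, adjusted p = 0.133 and 0.386), as did that at 2.68 kb (-0.95 and -1.06, adjusted p = 0.252 and 0.172). That at 17.7 kb ended without number 2 (-0.69, adjusted p = 0.0585) and that of Stat5a without number 1 (-0.27, adjusted p = 0.127), and quantile normalization left Stat5a at -0.21 (adjusted p = 0.0383).

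Stat3, the mediator of interleukin-6 family signals, had 3 peaks higher and 2 lower in aged Tprog than in aged Tterm, and 2 higher in young Tprog. The widest of these differences was at 28.7 kb (chr11:100910525-100911156), with 162 and 125 in aged Tprog and 93.7 and 80.6 in aged Tterm, or 0.70 ± 0.27 (SE, adjusted p = 0.0473). It was not called under quantile normalization (0.65, adjusted p = 0.0806) or without the libraries numbered 1 or 2 (0.63 and 0.78, adjusted p = 0.369 and 0.2). At the Stat3 start peak aged OTC cells had 2815 and 2488 in Tprog and 3160 and 3167 in Tterm, and young ones 2876 and 2854 in Tprog and 2550, 2504 and 2467 in Tterm. Tprog was thus lower in aged cells (-0.26 ± 0.06 SE, adjusted p = 0.000505) and higher in young ones (0.19 ± 0.05 SE, adjusted p = 0.00403), the only peak called in both hosts with opposite signs. Quantile normalization ended both calls, at -0.09 (adjusted p = 0.294) and 0.08 (adjusted p = 0.266). The aged call also ended without number 2 (-0.17, adjusted p = 0.222), and the young one without number 1 or 2 (0.20 each, adjusted p = 0.0517 and 0.0569). Stat6, which acts below interleukin-4, had a peak 12.2 kb inside the gene (chr10:127654635-127655768) with 411 and 453 in aged Tprog, 462 and 438 in Ttran, 611 and 600.3 in Tterm and 589 and 612 in Ttad. Tprog and Ttran lay below Tterm and Ttad, and the difference between Tprog and Tterm was -0.49 ± 0.12 (SE, adjusted p = 0.000896), which was not called without number 1 (-0.40, adjusted p = 0.126). In young OTC cells the same peak had 484 to 576 in all 8 libraries and was called in no comparison of states.

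Among the inhibitors, the peak 44 bp past the 3' end of Socs3 (chr11:117965454-117966035) was highest in Tprog. SOCS3 binds gp130 and other receptor chains. Aged OTC cells had 784 and 696 in Tprog, 469 and 620.1 in Ttran and 558 and 549.9 in Tterm, and young ones 782 and 731 in Tprog, 362, 496 and 433 in Ttran and 403, 401 and 419.6 in Tterm. Tprog lay above the other states without overlap in both hosts, and its difference from Tterm was 0.41 ± 0.13 (SE, adjusted p = 0.0141) in aged and 0.89 ± 0.12 (SE, adjusted p = 2.36e-09) in young cells. The aged call ended without the libraries numbered 1 or 2 (0.34 and 0.49, adjusted p = 0.305 and 0.0828). The called Socs2 peaks were lowest in Tprog. SOCS2 is an inhibitor of growth hormone signalling and part of a ubiquitin ligase. The peak 24.8 kb outside the Socs2 body (chr10:95442077-95442875) had 27.2 and 20.4 in aged Tprog, 96.3 and 97.2 in Ttran and 86.1 and 63.2 in Tterm, and in young cells 45.1 and 57.3 in Tprog, 84.8, 102 and 77.1 in Ttran and 99.2, 105 and 99.0 in Tterm. Its difference between Tprog and Tterm was -1.61 ± 0.35 (SE, adjusted p = 0.000254) in aged and -0.98 ± 0.32 (SE, adjusted p = 0.0159) in young cells, where it was not called without the libraries numbered 1 or 2 (-0.82 and -1.12, adjusted p = 0.215 and 0.0726). The Socs2 body peak had 237 and 269 in young Tprog against 461, 467 and 434 in young Tterm, a difference of -0.84 ± 0.12 (SE, adjusted p = 3.42e-08), and was not called in aged cells. The Socs1 start peak, of the gene for the inhibitor of JAK kinases below interferon receptors, was called in none of the 16 comparisons made here.

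**Figure D3:**
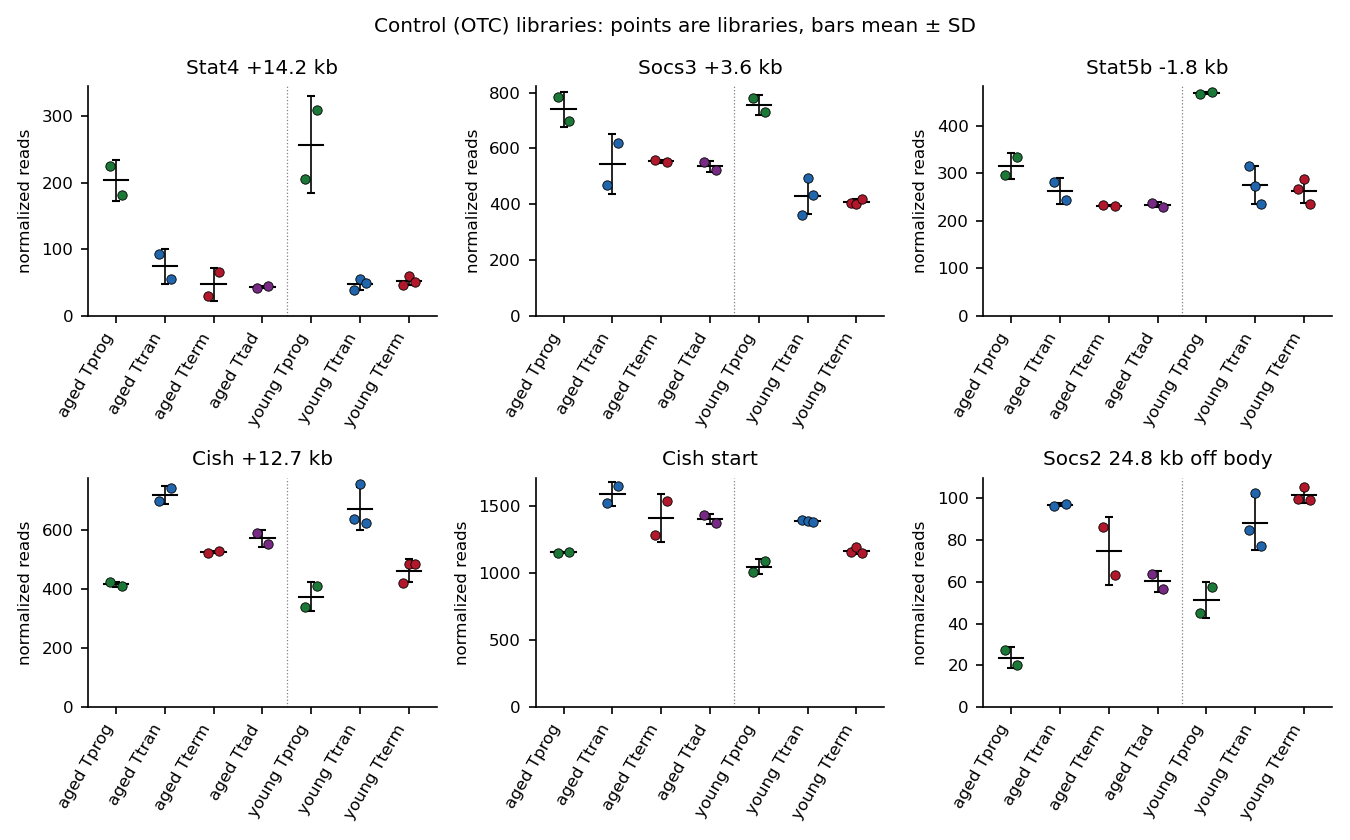
Normalized reads of 6 peaks in the OTC libraries by host and state, each point a library and each bar the mean with its SD. Stat4 +14.2 kb, Socs3 +3.6 kb and Stat5b -1.8 kb are highest in Tprog in both hosts, Socs2 is lowest there, and Cish +12.7 kb is highest in Ttran, at 699 and 743 in aged and 624 to 758 in young cells.

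At a peak downstream of Cish, Ttran differed from both other states. The product of Cish inhibits STAT5 signalling and T cell receptor signalling. Between Ttran and Tprog 19 members were called in aged cells, 14 higher and 5 lower in Ttran, against 17% of all peaks (9.99% higher and 6.98% lower). In young cells 18 were called, 9 higher and 9 lower, against 16.9% (9.07% higher and 7.82% lower). Among peaks with a mean of at least 317, 26.1% were called in aged cells (19.9% higher and 6.19% lower). In young cells 19.8% were (12.2% higher and 7.61% lower). The 34 members among them had 10 higher and 2 lower in aged cells, and 7 higher and 5 lower in young cells. Of the 6 Cish peaks 5 rose in Ttran in each host. The peak 12.7 kb downstream of the Cish start (chr9:107308981-107309806) had 423 and 409.9 in aged Tprog, 699 and 743 in Ttran, 524 and 529.7 in Tterm and 592 and 553 in Ttad. Young OTC cells had 340.3 and 411 in Tprog, 639.8, 758 and 624 in Ttran and 420.3, 486 and 485 in Tterm. Every Ttran library was above every library of the other states in its host. Ttran exceeded Tprog by 0.79 ± 0.12 (SE, adjusted p = 1.98e-07) in aged and 0.84 ± 0.11 (SE, adjusted p = 2.07e-09) in young cells. At the Cish start peak (chr9:107295469-107297412), whose promoter holds the paired motif matches shown above, aged OTC cells had 1153 and 1158 in Tprog and 1525 and 1652 in Ttran, and young ones 1007 and 1087 in Tprog and 1399, 1388 and 1383 in Ttran. The differences there were 0.46 and 0.41, and the aged one was 0.27 (adjusted p = 0.0115) under quantile normalization. The peak 1.81 kb inside Cish (chr9:107298251-107298684) was higher in young Ttran by 0.98 ± 0.19 (SE, adjusted p = 6.01e-05). The aged Ttran libraries are among those apart at Thy1, and the young ones, with the same direction at Cish, are not.

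Other peaks moved between Tprog and Ttran as between Tprog and Tterm, in comparisons that share the Tprog libraries. Stat4 at 14.2 kb was lower in Ttran with a log2 difference of -1.48 ± 0.35 (SE, adjusted p = 0.00118) in aged and -2.40 ± 0.32 (SE, adjusted p = 6.54e-09) in young cells, and the aged call ended without the libraries numbered 2 (-1.26, adjusted p = 0.102). Socs2 rose in Ttran at 24.8 kb in aged cells (1.99 ± 0.35 SE, adjusted p = 8.1e-06) and at its body peak in young cells (0.91 ± 0.12 SE, adjusted p = 9.34e-09). Stat5b at 2.68 kb upstream rose in aged Ttran by 1.37 ± 0.34 (SE, adjusted p = 0.00192), and was not called without number 1 (1.2, adjusted p = 0.117). The Stat5a start peak, at 2306 and 2592 in aged Ttran, rose by 0.46 ± 0.08 (SE, adjusted p = 2.03e-06), and in young Ttran, at 1876, 1989 and 1920, by 0.23 ± 0.07 (SE, adjusted p = 0.0136). The aged value was 0.21 (adjusted p = 0.0355) under quantile normalization, and the young call ended without number 1 or 2 (0.18 and 0.27, adjusted p = 0.251 and 0.0585).

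Between Ttran and Tterm fewer peaks were called than between Ttran and Tprog, among the members as over all peaks. In aged cells 3 were called, 1 higher and 2 lower in Ttran, against 3.22% of all peaks (1.87% higher and 1.35% lower), and under quantile normalization 1 higher and none lower. In young cells 8 were called, 7 higher and 1 lower, against 8.38% (5.02% higher and 3.36% lower). At a mean of at least 317, 5.05% of peaks were called in aged cells (2.6% higher and 2.45% lower). In young cells 19.9% of them were (9.92% higher and 9.95% lower). The 34 members at that level had 1 higher and 1 lower in aged cells, and 7 higher and 1 lower in young cells. Cish at 12.7 kb was higher in Ttran in both hosts, by 0.45 ± 0.12 (SE, adjusted p = 0.0179) in aged and 0.54 ± 0.10 (SE, adjusted p = 4.51e-05) in young cells. The aged call ended without the libraries numbered 1 or 2 (0.49 and 0.42, adjusted p = 0.158 and 0.235), and the young call held without each number. A second Cish peak, 313 bp past the gene (chr9:107303097-107303786), was higher in young Ttran by 0.50 ± 0.11 (SE, adjusted p = 0.00135). The Stat5b start peak (chr11:100850077-100851556) was lower in young Ttran with a log2 difference of -0.46 ± 0.13 (SE, adjusted p = 0.0143), and without number 1 it was -0.28 (adjusted p = 0.393). The 2 lower peaks of aged Ttran were Stat6 at 12.2 kb (-0.43 ± 0.12 SE, adjusted p = 0.023) and Stat5b at 17.7 kb (-0.56 ± 0.17 SE, adjusted p = 0.0487). Both calls ended under quantile normalization (-0.37 and -0.54) and when the 2 states were fitted alone (-0.43 and -0.56), at an adjusted p between 0.0692 and 0.124, and the Stat5b call also with edgeR (-0.57, adjusted p = 0.062). Neither was called without the libraries numbered 1 or 2 (-0.63 to -0.40, adjusted p between 0.189 and 0.364).

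The Ttad state was compared with Tterm and Tprog in aged OTC cells. Against Tterm 2 members were called, both lower in Ttad, where 7.28% of all peaks were called (3.02% higher and 4.26% lower). At a mean of at least 317, 9.64% of peaks were (3.35% higher and 6.3% lower), and none of the 34 members at that level. Ttad differed from Tprog at 8 members, 5 higher and 3 lower in Ttad, against 6.55% of all peaks (3.82% higher and 2.73% lower). Under quantile normalization 3 were higher and 4 lower than in Tprog. Among peaks with a mean of at least 317, 11.1% were called against Tprog (9.18% higher and 1.88% lower). The 34 members among them had 4 higher and 1 lower. Against Tprog, Stat4 at 14.2 kb was lower in Ttad with a log2 difference of -2.21 ± 0.35 (SE, adjusted p = 5.83e-06), Socs2 at 24.8 kb was higher by 1.31 ± 0.35 (SE, adjusted p = 0.0109) and Cish at 12.7 kb was higher by 0.46 ± 0.12 (SE, adjusted p = 0.00863). The Socs2 and Cish calls ended without the libraries numbered 1 or 2 (Socs2 1.43 and 1.2, adjusted p = 0.136 and 0.197, Cish 0.43 and 0.48, adjusted p = 0.22 and 0.105), and that of Socs2 also when the 2 states were fitted alone (1.31, adjusted p = 0.0673). Stat5b at 17.7 kb had 218 and 159 in Ttad against 270.2 and 302 in Tterm, a difference of -0.61 ± 0.17 (SE, adjusted p = 0.0145), which without the libraries numbered 2 was -0.31 (adjusted p = 0.598). A weak Stat4 peak, 19.6 kb inside the gene (chr1:52027592-52028075), was called lower in Ttad against both states. Its Ttad libraries had 0 and 29.6, against 30.6 and 45.2 in Tprog and 22.9 and 32.1 in Tterm, so that 1 of the 2 Ttad libraries lay within the range of the others. Without the libraries numbered 1 its difference from Tterm was -0.11 (adjusted p = 0.974) and from Tprog -0.60 (adjusted p = 0.847), and without those numbered 2 they were -4.58 and -4.98. With edgeR they were -0.79 (adjusted p = 0.472) and -1.25 (adjusted p = 0.178), and with a pseudocount of 8 -1.02 (adjusted p = 0.126) and -1.39 (adjusted p = 0.0254). When the compared states were fitted alone neither was called (adjusted p = 0.145 and 0.0633). All OTC Ttad libraries are apart at Thy1.

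Aged and young hosts were compared in OTC cells over the mean of the 3 shared states. Here 32 of the 67 peaks were called, 19 of them with more and 13 with fewer reads in aged hosts, against 36.5% of all peaks (17.3% higher and 19.1% lower). Among peaks with a mean of at least 317, 42.9% were called (21.5% higher and 21.4% lower). The 34 members among them had 16 higher and 6 lower. In single states 14 of the 67 were called in Tprog (15.4% of all peaks), 18 in Ttran (18.3%) and 19 in Tterm (18.9%). Over the mean of the states Stat5a and Cish had 3 called peaks each that were higher in aged hosts and none lower, while Stat4 had 7 higher and 4 lower and Socs1 and Socs3 had 1 higher and 3 lower each. No Socs2 peak was called over the mean of the states, and in Tprog alone 1 was higher and 1 lower. The library names carry 24 sample numbers, each used once per host age, so that host age and sample sheet cannot be told apart.

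The Stat5a peak 23 kb inside the gene (chr11:100882775-100884202) had 462 and 429 in aged Tprog, 642 and 612 in Ttran and 567 and 549 in Tterm. In young cells it had 294 and 375 in Tprog, 381, 435 and 376 in Ttran and 351, 309.8 and 361 in Tterm. Aged libraries were above young ones without overlap in 3 of 3 states, by 0.60 ± 0.07 (SE, adjusted p = 1.1e-10). The Stat5a start peak was higher by 0.35 ± 0.04 (SE, adjusted p = 3.68e-11), also in 3 of 3 states. A Stat4 peak 10.1 kb from a start (chr1:51996726-51997703) had 343 and 305 in aged Tprog, 205 and 191 in Ttran and 179.8 and 247 in Tterm, and in young cells 133 and 119.8 in Tprog, 147, 76.6 and 109 in Ttran and 149.8, 123 and 111 in Tterm. It was higher in aged hosts in 3 of 3 states, by 0.99 ± 0.12 (SE, adjusted p = 1.64e-10). The weak Stat4 peak at 84.7 kb (chr1:52092733-52093168) was higher by 1.23 ± 0.37 (SE, adjusted p = 0.00481), and was not called over Tprog and Tterm alone (0.89, adjusted p = 0.143) or without the libraries numbered 2 (0.94, adjusted p = 0.183).

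Lower in aged hosts were Stat3 at 34.4 kb, Socs3 at 17.1 and 15.1 kb and Stat5b at 17.7 kb. Stat3 at 34.4 kb (chr11:100904553-100905675) had 343 and 409.9 in aged Tprog, 373 and 319 in Ttran and 435 and 452 in Tterm, and in young cells 548 to 654 over all 8 libraries. It was lower without overlap in 3 of 3 states, with a log2 difference of -0.58 ± 0.07 (SE, adjusted p = 9.01e-12). Socs3 at 17.1 kb from the start, past the gene's end (chr11:117951645-117952901), had 119 and 122 in aged Tprog, 134 and 119.6 in Ttran and 81.7 and 108 in Tterm, and in young cells 279 and 234 in Tprog, 221, 236 and 203 in Ttran and 182, 220.2 and 201 in Tterm. Its difference was -0.99 ± 0.13 (SE, adjusted p = 1.41e-09), that of the peak at 15.1 kb (chr11:117954097-117954427) -1.05 ± 0.25 (SE, adjusted p = 0.000463), and that of Stat5b at 17.7 kb -0.68 ± 0.09 (SE, adjusted p = 4.02e-09). All 4 were lower without overlap in 3 of 3 states. Over Tprog and Tterm alone, without the libraries apart at Thy1, 32 members were called, 17 higher and 15 lower, against 27.3% of all peaks, and 29 of them were among the 32 above. The start peaks of Stat3 and Stat6, called higher in aged hosts by 0.13 and 0.13, were not called under quantile normalization (0.04 and 0.09, adjusted p = 0.311 and 0.0545), and that of Stat6 was 0.05 (adjusted p = 0.52) without number 1.

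The Zfp219 guide was compared with OTC in each host over the mean of its states. The OTC libraries of Tprog, Ttran and Tterm are the same as in the host age comparison above. Most of the called members were lower with Zfp219, and Stat5a was lower at each of its peaks in both hosts. In aged hosts 32 of 67 peaks were called, 5 higher and 27 lower, against 25.8% of all peaks (12.1% higher and 13.7% lower). In young hosts 15 were called, none higher and 15 lower, against 7.07% (1.92% higher and 5.15% lower). Members are strong peaks. Of the 13438 peaks with a mean of at least 317 normalized reads, 20.1% were called lower with Zfp219 in aged and 14.1% in young hosts, and of the 34 members among them 21 and 12 were.

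**Figure D4:**
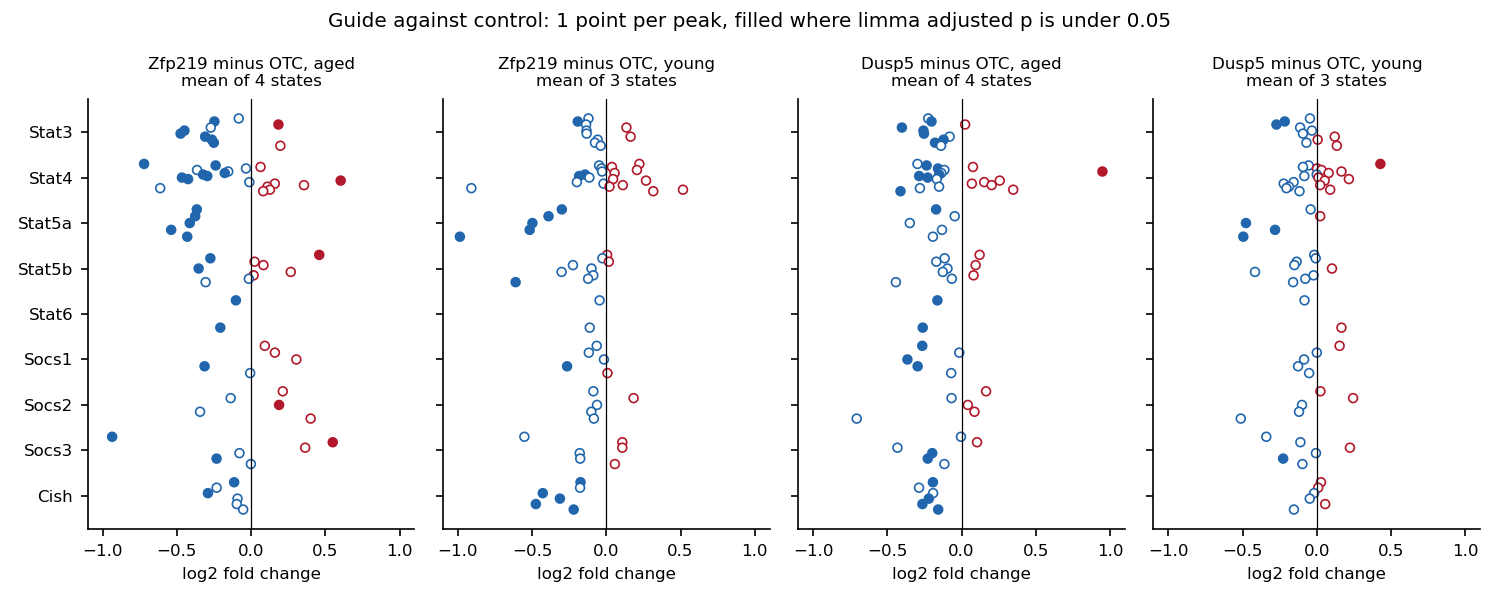
Log2 difference from OTC of each of the 67 peaks, by gene, for the Zfp219 and Dusp5 guides in aged hosts (mean of 4 states) and young hosts (mean of 3 states), filled where called. With Zfp219 all 5 Stat5a peaks are filled and below 0 in both hosts, between -0.54 and -0.37 in aged and between -0.99 and -0.30 in young cells.

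At the Stat5a start peak the aged OTC libraries had 1730 and 1823 in Tprog, 2306 and 2592 in Ttran, 2361 and 2191 in Tterm and 2096 and 2287 in Ttad. The aged Zfp219 libraries had 1597 and 1608 in Tprog, 1580 and 1610 in Ttran, 1732 and 1703 in Tterm and 1850 and 1728 in Ttad. In 4 of 4 states both Zfp219 libraries lay below both OTC libraries, and the difference was -0.37 ± 0.04 (SE, adjusted p = 3.93e-13). Young OTC cells had 1572 and 1722 in Tprog, 1876, 1989 and 1920 in Ttran and 1530, 1474 and 1550 in Tterm, and young Zfp219 cells 1410 and 1382 in Tprog, 1596, 1399 and 1211 in Ttran and 1393, 1203 and 1397 in Tterm. They were lower without overlap in 3 of 3 states, with a log2 difference of -0.30 ± 0.04 (SE, adjusted p = 1.44e-08). The Stat5a peak at 23 kb was lower with a log2 difference of -0.54 ± 0.07 (SE, adjusted p = 5.46e-10) in aged and -0.52 ± 0.07 (SE, adjusted p = 4.21e-08) in young hosts. In aged Ttran it had 264 and 289.6 with Zfp219 against 642 and 612 with OTC, and in young Ttran 196, 219.7 and 226 against 381, 435 and 376.

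The Stat5a peak 162 bp past the gene's end (chr11:100885331-100886177), between Stat5a and Stat3, showed the widest difference in young hosts. Young OTC cells had 152 and 235 in Tprog, 189, 209 and 238 in Ttran and 174, 211 and 159 in Tterm, and young Zfp219 cells 101 and 73.0 in Tprog, 96.9, 58.3 and 109.6 in Ttran and 127, 117 and 128 in Tterm. The groups did not overlap in 3 of 3 states, and the difference was -0.99 ± 0.11 (SE, adjusted p = 1.21e-10). In aged hosts it was -0.43 ± 0.11 (SE, adjusted p = 0.00148), with overlap in Tprog, where Zfp219 had 182 and 225 and OTC 214 and 193. Without the libraries numbered 2 the young difference was -0.67 (adjusted p = 0.000806), and without those numbered 1 the aged one was -0.37 (adjusted p = 0.129).

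**Figure D5:**
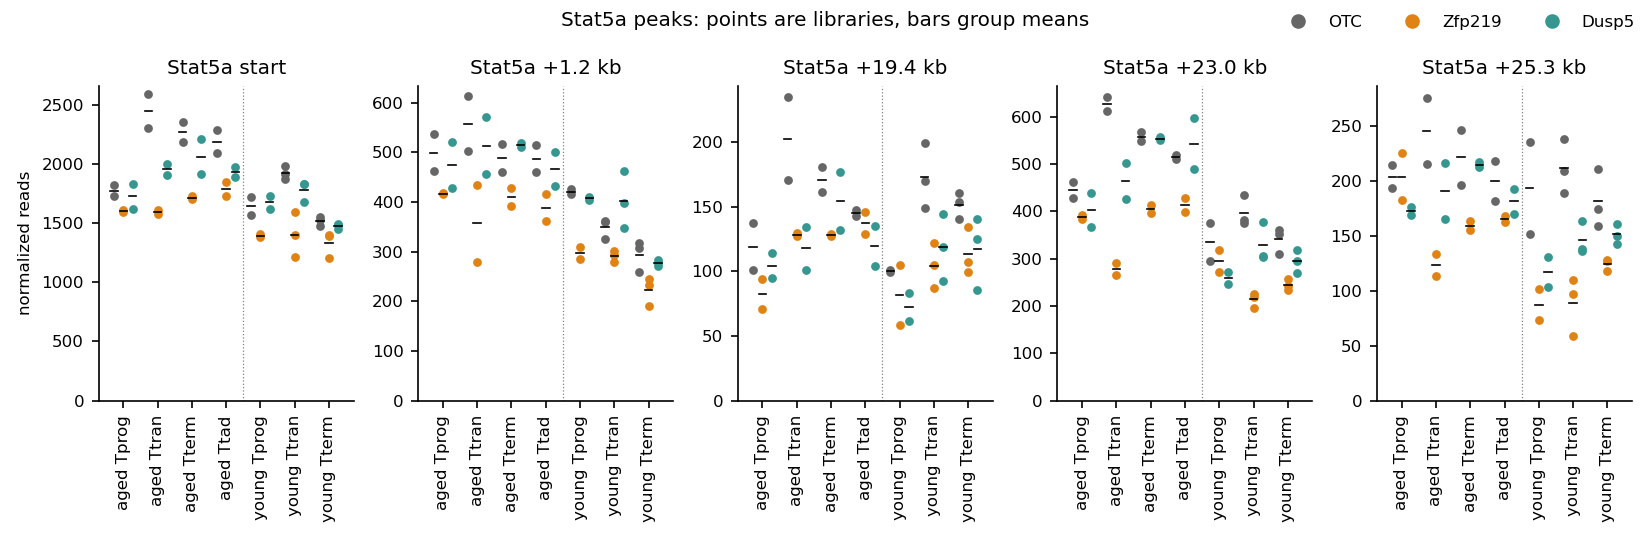
Normalized reads of the 5 Stat5a peaks by host and state, each point a library coloured by guide and each bar a group mean. Zfp219 libraries lie below the OTC libraries in 4 of 4 aged and 3 of 3 young states at the start peak, where every Dusp5 library lies above every Zfp219 library of its host and state.

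The other STAT genes also had lower peaks with Zfp219 in aged hosts. Of the Stat3 peaks 6 of 10 were lower and 1 higher, of the Stat4 peaks 7 of 19 lower and 1 higher, of the Stat5b peaks 2 lower and 1 higher, and both Stat6 peaks were lower. Over Tprog and Tterm alone 3 Stat3, 4 Stat4 and 2 Stat5b peaks were called, all lower. Neither Stat6 peak was called there (-0.09 at the start and -0.15 at 12.2 kb, adjusted p = 0.369 and 0.309). The call at the Stat6 start also ended under quantile normalization (-0.04, adjusted p = 0.495). Stat4 at 10.1 kb had 192 and 238 in aged Tprog, 112 and 155 in Ttran, 161 and 99.3 in Tterm and 177 and 147 in Ttad, below the OTC libraries in 4 of 4 states, with a log2 difference of -0.72 ± 0.11 (SE, adjusted p = 3.46e-07). The strongest Stat4 peak, at 32.0 kb, had 1282 and 1365 in aged Zfp219 Ttran against 1945 and 1797 in OTC Ttran, and was lower over the states with a log2 difference of -0.32 ± 0.04 (SE, adjusted p = 3.17e-12). The Stat3 start peak had 2507 and 2410 in aged Zfp219 Ttran against 3138 and 3392 in OTC Ttran, and was lower with a log2 difference of -0.25 ± 0.03 (SE, adjusted p = 4.29e-11), and under quantile normalization with a log2 difference of -0.12 (adjusted p = 0.00105). The strongest Stat5b peak, 7.96 kb inside the gene (chr11:100840835-100844415), was lower with a log2 difference of -0.35 ± 0.05 (SE, adjusted p = 9.43e-10). In young hosts 1 Stat3, 2 Stat4 and 1 Stat5b peak were lower, the last at 2.68 kb upstream with a log2 difference of -0.61 ± 0.17 (SE, adjusted p = 0.0164), which was not called without number 1 or 3 (-0.50 and -0.59, adjusted p = 0.152 and 0.0744) or in the compared groups alone (-0.61, adjusted p = 0.0551). Higher with Zfp219 in aged hosts were Stat4 at 68.4 kb (chr1:52076196-52077100, 0.60 ± 0.15 SE, adjusted p = 0.000881) and Socs3 at 17.1 kb (0.55 ± 0.12 SE, adjusted p = 0.000244, in 4 of 4 states). Neither was called without the libraries numbered 2 (0.50 and 0.37, adjusted p = 0.0837 and 0.144).

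Among the inhibitors, 5 of the 6 Cish peaks were lower with Zfp219 in young hosts and 2 in aged hosts. The aged calls, at the Cish start and 313 bp past the gene, ended over Tprog and Tterm alone (-0.09 and -0.26, adjusted p = 0.43 and 0.0844). Quantile normalization ended the calls at the Cish start in aged and young hosts (-0.05 and -0.11, adjusted p = 0.402 and 0.11). At 12.7 kb young Zfp219 cells had 352 and 320.0 in Tprog, 352, 412 and 403 in Ttran and 309.5, 362 and 326 in Tterm. In Ttran and Tterm each lay below each OTC library, and in Tprog they overlapped, with a difference over the states of -0.47 ± 0.06 (SE, adjusted p = 9.55e-09). The peak 438 bp past the 3' end of Socs1 (chr16:10781889-10783370) was lower with Zfp219 in both hosts, with a log2 difference of -0.31 ± 0.04 (SE, adjusted p = 2.17e-08) in aged (4 of 4 states) and -0.26 ± 0.05 (SE, adjusted p = 1.75e-05) in young cells (3 of 3 states). A weak peak 27.5 kb from the Socs3 start (chr11:117941517-117942173) was lower in aged hosts with a log2 difference of -0.94 ± 0.26 (SE, adjusted p = 0.00334), and was not called without number 1 (-0.61, adjusted p = 0.261). The Socs2 body peak was higher in aged hosts, by 0.19 ± 0.07 (SE, adjusted p = 0.0292), and was not called without number 1 or 2 (0.20 and 0.18, adjusted p = 0.202 and 0.234).

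In single states the Zfp219 calls were most numerous in Ttran, among the members as over all peaks. The aged OTC Ttran and Zfp219 Ttran groups are both apart at Thy1. In aged hosts 4 members were called in Tprog (against 2.56% of all peaks), 18 in Ttran (14.2%), 7 in Tterm (3.57%) and 14 in Ttad (8.23%). Young hosts had 2 in Tprog (0.997%), 13 in Ttran (5.88%) and 3 in Tterm (0.275%). Over Tprog and Tterm alone, without the groups apart at Thy1, 14 members were called in aged hosts, 1 higher and 13 lower, against 7.33% of all peaks. There all 5 Stat5a peaks were negative and 2 were called, the start peak with a log2 difference of -0.28 (adjusted p = 0.000187), while the calls at Stat4 68.4 kb, the Socs2 body peak and the peak past Stat5a ended (0.40, 0.11 and -0.24, adjusted p = 0.279, 0.582 and 0.428), and Stat5a at 23 kb was -0.33 (adjusted p = 0.0202).

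The Dusp5 guide was compared with the same OTC libraries. The called members were mostly lower, by small amounts. In aged hosts 25 of 67 were called, 1 higher and 24 lower, against 12.2% of all peaks (4.35% higher and 7.87% lower). The lower ones were 6 in Stat3, 6 in Stat4, 4 in Cish, 3 in Socs1, 2 each in Stat6 and Socs3 and 1 in Stat5a. With quantile normalization 11 were called, all lower. In young hosts 7 were called, 1 higher and 6 lower, against 3.82% (1.8% higher and 2.02% lower). Of the peaks with a mean of at least 317, 19.7% were called lower in aged hosts, and 21 of the 34 members among them.

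The peak 438 bp past Socs1 had the smallest adjusted p among the members. Aged OTC cells had 1150 and 1012 in Tprog, 1406 and 1326 in Ttran, 1176 and 1265 in Tterm and 1291 and 1223 in Ttad, while aged Dusp5 cells gave 956 and 836 in Tprog, 1029 and 889.6 in Ttran, 1138 and 1023 in Tterm and 1042 and 1113 in Ttad. They did not overlap in 4 of 4 states, and the difference was -0.30 ± 0.04 (SE, adjusted p = 4.51e-07). The aged Zfp219 libraries at this peak had 987 and 954 in Tprog, 855 and 963 in Ttran, 996 and 993 in Tterm and 1074 and 1090 in Ttad. Of the Stat3 peaks 6 of 10 were lower, 1 of them with a log2 difference of -0.40 ± 0.13 (SE, adjusted p = 0.0315) at 28.7 kb. Of the Stat4 peaks 6 of 19 were lower, among them that at 92.4 kb (chr1:52100297-52100997) with a log2 difference of -0.41 ± 0.13 (SE, adjusted p = 0.0297), and 4 of the 6 Cish peaks were lower, with log2 differences between -0.26 and -0.16. The Stat3 call at 28.7 kb ended with edgeR (-0.38, adjusted p = 0.0662), in the compared groups alone (-0.40, adjusted p = 0.0822) and without number 1 or 2 (-0.35 and -0.45, adjusted p = 0.276 and 0.132), and over Tprog and Tterm alone it was -0.78 (adjusted p = 0.00641). The Stat4 call at 92.4 kb ended in the compared groups alone (-0.41, adjusted p = 0.101), over Tprog and Tterm alone (-0.22, adjusted p = 0.628) and without number 1 (-0.09, adjusted p = 0.833), and without number 2 it was -0.73 (adjusted p = 0.00321). The higher peak was Stat4 at 19.6 kb (0.95 ± 0.32 SE, adjusted p = 0.0372), where 1 OTC Ttad library has the value 0. Without the libraries numbered 1 its difference was 0.28 (adjusted p = 0.756), over Tprog and Tterm alone 0.07 (adjusted p = 0.966), with edgeR 0.59 (adjusted p = 0.13) and, without number 2, it was 1.62 (adjusted p = 0.00539). The start peaks of Stat3 (-0.18), Stat5a (-0.17), Stat6 (-0.16) and Cish (-0.19) and the strongest Stat4 peak (-0.15) were called lower, and none of these 5 calls held under quantile normalization (-0.09 to -0.04, adjusted p between 0.143 and 0.542). Those of Stat5a, Stat6 and Stat4 also ended without number 1 (-0.14 to -0.11, adjusted p between 0.103 and 0.226) and that of Cish without number 2 (-0.14, adjusted p = 0.118). Over Tprog and Tterm alone 7 members were called, all lower, against 3.52% of all peaks.

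In young hosts Stat5a held 3 of the 6 lower calls with Dusp5. The peak 162 bp past the gene had 131 and 103 in Tprog, 136, 138 and 163 in Ttran and 150.1, 142 and 161 in Tterm, a difference from OTC of -0.50 ± 0.11 (SE, adjusted p = 0.00281). Its libraries lay below those of OTC in Tprog and Ttran and overlapped them in Tterm. Without the libraries numbered 2 this difference was -0.27 (adjusted p = 0.471). The peak at 19.4 kb (chr11:100879539-100880219) was lower with a log2 difference of -0.48 ± 0.13 (SE, adjusted p = 0.0176), and was not called without number 2 or 3 (-0.44 and -0.31, adjusted p = 0.247 and 0.319). Stat4 at 10.1 kb was the 1 higher peak, with 209.5 and 146 in Dusp5 Tprog against 133 and 119.8 in OTC Tprog, and a difference over the states of 0.43 ± 0.12 (SE, adjusted p = 0.0183), which was not called when any replicate number was left out, with values of 0.41 to 0.46 (adjusted p = 0.103 to 0.139). In single states Dusp5 calls were few. In aged hosts there were 2 in Tprog (0.83% of all peaks), 4 in Ttran (3.8%), 4 in Tterm (4.11%) and 7 in Ttad (2.88%). Young hosts had 1 in Tprog (0.782%), none in Ttran (0.646%) and none in Tterm (0.273%). At an unadjusted p under 0.05, limma counted 10 members in young Ttran, against 10.5% of all peaks, and 6 in young Tterm, against 7.46%.

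Whether host age changed these differences was tested with interaction terms. For Tprog against Tterm in OTC cells 3 members were called, all lower, against 2.32% of all peaks (0.512% higher and 1.81% lower). For Zfp219 there were 14, 4 higher and 10 lower in aged than in young hosts, against 9.11% (4.09% higher and 5.01% lower). For Dusp5 there were 5, all lower, against 4% (1.27% higher and 2.73% lower). At a mean of at least 317, 7.43% of peaks were called for Tprog against Tterm (1.34% higher and 6.09% lower). For Zfp219 14% of them were (8.06% higher and 5.95% lower), and for Dusp5 6.22% (1.35% higher and 4.87% lower). Of the 34 members at that level, 2 were called for Tprog against Tterm and 4 for Dusp5, all lower. For Zfp219 2 were higher and 8 lower. The Stat4 peak at 10.1 kb differed for both guides, in tests that share the OTC libraries. With Zfp219 its difference from OTC was -0.72 in aged hosts and was not called in young hosts, and the interaction was -0.86 ± 0.18 (SE, adjusted p = 0.000331). Over Tprog and Tterm alone the interaction counts were 3 for Zfp219 (against 3.28% of all peaks) and 1 for Dusp5 (1.58%).

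Of 33 other genes of the pathway (Janus kinases, further STAT, SOCS, PIAS and phosphatase genes and cytokine receptor chains), 32 had a peak, 208 in all. Between Tprog and Tterm 31 of the 208 were higher and 27 lower in Tprog in aged cells, and 40 higher and 22 lower in young cells. These calls were 27.9% and 29.8% of the 208, against 20.1% and 26.5% of all peaks. In aged against young hosts 31 were higher and 55 lower, or 41.3% called against 36.5% of all peaks. With Zfp219 29 were higher and 37 lower in aged hosts and 2 and 20 in young hosts, and with Dusp5 6 and 34 in aged and 4 and 8 in young hosts. The Zfp219 shares were 31.7% in aged and 10.6% in young hosts, against 25.8% and 7.07% of all peaks. Those of Dusp5 were 19.2% and 5.77%, against 12.2% and 3.82%. The median log2 difference with Dusp5 in aged hosts was -0.06 over these 208 peaks, -0.16 over the 67 members and 0.01 over all peaks. With Zfp219 in aged hosts the 3 medians were -0.04, -0.11 and 0.01. Over the peaks with a mean of at least 317 the aged medians were -0.05 with Dusp5 and 0.03 with Zfp219.

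The strongest body peak of each member was also compared with that of 12147 other genes over the 21 group means, as a description, since groups share hosts, guides and depth. The most alike were Synj2 (r = 0.957) and Gadd45b (0.945) for Stat5a, Mob3a (0.932) and Cep57 (0.908) for Stat3, and Cubn (0.921) and Ccdc88c (0.912) for Cish. For Stat5b they were Mfhas1 (0.917) and Trpm6 (0.914), for Stat4 Pik3r6 (0.889) and Tmbim1 (0.885), and for Socs2 Mxd3 (0.885) and Ubl7 (0.878). For Socs3 they were Tra2b (0.853) and Phlpp1 (0.824), for Stat6 Kdm2b (0.847) and Tgif1 (0.842), and for Socs1 Chchd1 (0.824) and Klhdc10 (0.821).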

How the data were processed

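ATAC-seq, which reads where the Tn5 enzyme can cut DNA, was made of 48 libraries in 21 groups (15 of 2 and 6 of 3 libraries), with paired reads of 50 bp. The submitters' processing notes name Bowtie2 2.2.9, Picard 2.8.0, SAMtools 1.3.1, MACS2 2.1.1, DESeq2 1.28.1 and the build mm10 without saying what each did. The deposited table holds normalized signal values for 53868 peaks shared by all libraries. Within each library every value was a whole number of reads divided by 1 factor (within 0.01 of a read for 100% of values), so the reads and depth could be recovered. That a peak's first base counts from 0 or 1 is not given in the sources used here.

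Tests used limma 3.58.1 in R 4.3.3 on log2(value + 1), with 1 mean per group over all 48 libraries and a spread that follows the level (lmFit, eBayes with trend). The Benjamini-Hochberg adjustment covered all 53868 peaks, with calls at an adjusted p under 0.05. Differences are in units of log2(value + 1), which understates most changes of weak peaks but widens one where a library is at 0. The comparisons of Zfp219 and of Dusp5 share the OTC libraries, so their values are given side by side only. The aged OTC libraries enter the host age comparison with a plus sign. They enter the aged guide comparisons and the interactions of guide with age with a minus sign. A peak high or low in these libraries can thus be called in several of these comparisons, which are not independent. Alternatives were quantile normalization, a pseudocount of 8, edgeR 4.0.16 (quasi-likelihood) on the recovered reads, a filter on weak peaks, a replicate block, the compared groups alone, and leaving out each replicate number in the compared groups. The mean over Tprog and Tterm alone was added after seeing the data. Scripts were tested on simulated data.

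The members and lists were chosen with earlier results of these data known. The text names the strongest body peak of each member and the 3 called peaks with the widest change per comparison. Other called peaks that it names were chosen after their values were seen.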

Additional observations from a re-analysis of the deposited data

Results flagged for a closer look

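Differences that themselves differed between aged and young hosts, by an interaction term in limma, are listed here for the peaks named by rule. They are log2 values, aged minus young, with adjusted p-values. For Tprog against Tterm in OTC cells the Stat3 start peak gave -0.45 (adjusted p = 0.000101), the Stat5a start peak -0.47 (adjusted p = 0.00256) and Stat5b at 17.7 kb -0.79 (adjusted p = 0.0478). At the Stat3 start peak Tprog was below Tterm in aged and above it in young cells. Under quantile normalization none of the 3 was called, at -0.17, -0.27 and -0.80 (adjusted p = 0.318, 0.186 and 0.0637), so that Stat5b kept its size and the other two did not. Without the libraries numbered 2 none of the 3 was called either (-0.36, -0.48 and -0.59, adjusted p = 0.148, 0.143 and 0.613).

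For Zfp219 against OTC the Stat4 peaks at 10.1 kb and 32.0 kb gave -0.86 (adjusted p = 0.000331) and -0.23 (adjusted p = 0.00267). The Stat3 peaks gave -0.20 at the start (adjusted p = 0.00147) and -0.50 at 7.78 kb (adjusted p = 0.00809), and the Stat5b peak at 7.96 kb gave -0.25 (adjusted p = 0.0122). The peak 162 bp past Stat5a went the other way with 0.50 (adjusted p = 0.0424), since its difference was wider in young hosts, and without the libraries numbered 2 it was 0.05 (adjusted p = 0.951) and without those numbered 1 it was 0.89 (adjusted p = 0.0206). Over Tprog and Tterm alone Stat4 at 10.1 kb kept its call. The other 5 were not called there, at values of -0.17 for Stat4 at 32.0 kb, -0.18 and -0.50 for Stat3, -0.20 for Stat5b and 0.59 past Stat5a (adjusted p between 0.0523 and 0.226), most of them close to those over the 3 states.

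For Dusp5 against OTC the Stat4 peaks at 10.1 kb and 32.0 kb gave -0.68 (adjusted p = 0.0109) and -0.18 (adjusted p = 0.0389), Stat6 at 12.2 kb gave -0.36 (adjusted p = 0.00862), and the peak 16.1 kb from the Socs1 start gave -0.36 (adjusted p = 0.0475). None of these 4 was called over Tprog and Tterm alone, although the values were close, at -0.66, -0.16, -0.38 and -0.37 (adjusted p between 0.057 and 0.263). Without the libraries numbered 2 none of the 4 was called either (-0.68 to -0.19, adjusted p between 0.192 and 0.516). At Stat6 12.2 kb aged Dusp5 Tterm cells had 476 and 469 normalized reads against 611 and 600 in aged OTC Tterm.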

How the results depend on the processing

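Of 102 counts of called members recomputed with another processing, 94 stayed within 1.5 times the main count. Quantile normalization moved Ttran against Tterm in aged hosts from 3 to 1, Dusp5 in aged hosts from 25 to 11, the interaction of state with age from 3 to 0 and that of Dusp5 with age from 5 to 3. The compared groups alone gave 1 for Ttran against Tterm in aged hosts and 5 for the interaction of state with age. For Ttad against Tterm, a pseudocount of 8 and edgeR each gave 1 in place of 2. Where quantile normalization gave 0, edgeR called 3. Over Tprog and Tterm alone the counts were 14 for Zfp219 and 7 for Dusp5 in aged hosts, and 3 and 1 for their interactions with age. The cause of these shifts was not tested. The counts over Tprog and Tterm alone also rest on fewer libraries. Of 230 called values, none reversed, and 79 of 1379 recomputed values lost the call, 46 of them under quantile normalization. These 1379 do not include the means over Tprog and Tterm alone, where 56 of 108 values lost the call and none reversed. The filter on weak peaks kept 63 of the 67 members.

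Of 582 values recomputed without 1 replicate number 259 lost the call and none reversed. Leaving out 1 replicate number in the compared groups leaves 1 library in the groups of 2, and a lone library is then assumed to vary like the others. The lowest and highest counts were 4 and 6 for Tprog against Tterm in aged and 10 and 14 in young hosts, 8 and 9 for Ttran against Tprog in aged and 12 and 14 in young hosts, and 0 and 0 for Ttran against Tterm in aged and 5 and 7 in young hosts. They were 1 and 1 for Ttad against Tterm, 2 and 2 for Ttad against Tprog, and 24 and 33 for host age. Zfp219 gave 18 and 20 in aged hosts and 8 and 13 in young ones, Dusp5 gave 7 and 13 in aged hosts and 0 and 3 in young ones. For the interactions with age they were 0 and 2 (state), 4 and 12 (Zfp219) and 0 and 4 (Dusp5), and for the calls of single states, 130 in all, 57 and 115.

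No common shift of same-numbered libraries was seen: their deviations from the group means correlated between -0.060 and 0.058. These correlations cannot tell whether such libraries came from the same mice. With the replicate block the count for Tprog against Tterm in aged hosts was 18 in place of 19, and no count moved by over 1.5 times. The block ended 6 of the 230 calls, with values close to those without it. They were Stat5b at 17.7 kb for Ttran against Tterm in aged hosts (-0.56, adjusted p = 0.0534) and for the interaction of state with age (-0.78, adjusted p = 0.0628), Socs1 at 16.1 kb for that of Dusp5 with age (-0.36, adjusted p = 0.0506), Stat3 at 28.7 kb for Tprog against Tterm in aged hosts (0.70, adjusted p = 0.0509), Stat4 at 11.7 kb for Ttran against Tprog in young hosts (-0.25, adjusted p = 0.0791) and a Stat4 peak for Zfp219 in young hosts (-0.18, adjusted p = 0.0546).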
